A study of Mus musculus with 12 samples.

Results

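The response of the normal mouse liver to tunicamycin (TM) was read here from 6 of the 12 expression arrays of the study. Of these, 3 came from wild-type mice, atf6a +/+, killed 8 h after an intraperitoneal injection of 2 mg/kg TM, and 3 from mice of the same genotype killed 8 h after the dextrose vehicle alone. The other arrays, from Atf6a-/- mice given the same injections, entered only the estimate of the spread between animals and a comparison of the genotypes. The animals were of mixed age and sex, were kept on a 12 h light and dark cycle with chow, and had been without food for 4 h when they were killed by day. Each array held RNA from the liver homogenate of 1 mouse, so that every cell type of the organ contributed to each value, and fewer cells of a type and less RNA per cell cannot be told apart. The labels give no strain for these animals.

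TM blocks the enzyme encoded by *Dpagt1*, which starts the synthesis of the sugar chain that is attached to proteins in the endoplasmic reticulum (ER). Proteins that need this chain misfold, and the cell answers with the unfolded protein response (UPR). The kinase PERK phosphorylates the translation factor eIF2alpha and so favors translation of the transcription factor ATF4, the nuclease IRE1 splices the mRNA of XBP1, and ATF6 travels to the Golgi, where it is cut to release a transcription factor. In the liver, which makes most plasma proteins and much of the body's lipid, the response is known to reach metabolic genes as well as ER chaperones.

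Values are log2 probe signals, with the group's difference (TM minus vehicle) on the same scale, so that a difference of 1 is a doubling. A gene was represented by its brightest probeset and called when limma gave a Benjamini-Hochberg adjusted p below 0.05 together with a change of over 1.5-fold in either direction. Of 18193 genes, 1623 were higher and 1255 lower with TM, that is 8.92% and 6.9% of all genes, which is the background for each count below. Over probesets, 3198 of 45037 were higher and 2231 lower, or 7.1% and 4.95%. Among the called genes the values of the 3 TM animals lay entirely above those of the vehicle animals for 1616, or entirely below for 1232. Over all genes, called or not, the groups lay apart in this way for 39.3%. The median of all genes was -0.06. Below, values given per animal are levels of replicates 1 to 3, and single values given for a gene are differences. Where a list of genes below had 0 members in a direction, the number of its members with a limma p below 0.05 before adjustment is given beside it as the unadjusted count.

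The 3 TM arrays correlated with each other at 0.993 to 0.995 across probesets, and vehicle replicates 1 and 3 at 0.994. Vehicle replicate 2 stood somewhat apart, at 0.987 and 0.988 from the other two. This array and TM replicate 1 were the ones with signal from Y-linked genes, and it also held the lowest mean log2 levels, of the vehicle arrays, for markers of stellate cells (8.18, against 9.02 and 9.13), Kupffer cells (8.99, against 9.68 and 9.79) and endothelial cells (8.40, against 8.88 and 9.12). Without it, 1730 genes were higher and 1545 lower, of which 1538 and 1130 were among the original calls. Markers of hepatocytes had means between 13.79 and 13.93 on all 6 arrays.

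Increases were the larger changes. Of the genes called higher, 181 passed 4-fold and 23 passed 16-fold, whereas 67 of the lower genes passed 4-fold and only *Keg1* passed 16-fold. The median fold change among called genes was 1.96 upwards and 1.84 downwards. The share of genes called depended on the level with vehicle. When the genes were put into 4 bins of equal size by that level, 0.857% of the dimmest bin were higher and 0.154% lower, 15.5% and 9.67% of the third, and 13.6% and 15.7% of the brightest. Of the 100 brightest genes only 2 were called, both lower. Among the higher genes, 83 had a vehicle mean below the median of all probesets and 81 of the lower genes a TM mean below it, so that one side of their fold changes lies in the range of the array's background.

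**Figure D1:**
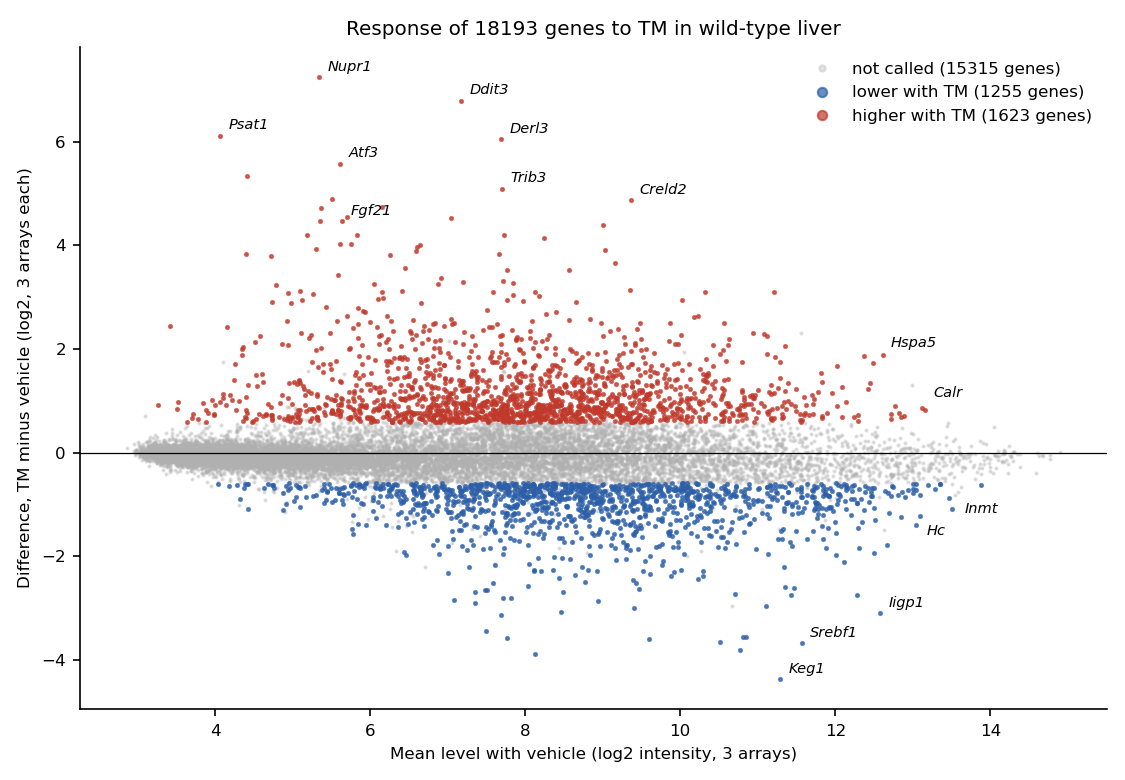
Level with vehicle (x axis, mean log2 signal of 3 animals) against the difference TM minus vehicle (y axis, log2) for 18193 genes, with called genes in color and selected genes labelled. The largest of the 1623 increases start from low or middle levels, and among the brightest bin of genes 13.6% are higher and 15.7% lower.

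The 15 genes with the largest increases included 4 transcriptional regulators of the stress response. *Nupr1*, a small chromatin protein induced by many stresses, read 5.62, 4.70 and 5.71 with vehicle and 12.51, 12.73 and 12.53 with TM. Among the brightest probesets of all genes this was the largest change, 7.25 ± 0.25 (SE, n = 3 against 3) or 152-fold, with a limma adjusted p of 6.06e-09. The other probeset of *Nupr1* gave 7.63. *Ddit3*, which encodes the C/EBP family member CHOP, rose from 7.08, 7.23 and 7.22 to 14.19, 13.95 and 13.77, a 111-fold change with a limma adjusted p of 2.87e-12. The other probeset of *Ddit3* gave a smaller increase, 1.85. On their brightest probesets both genes thus went from a level near or little above the middle of the array to one among its bright signals. *Atf3*, another stress-induced bZIP factor, rose 47.9-fold and *Trib3*, a pseudokinase induced by ATF4 and CHOP, 34.2-fold.

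Enzymes of amino acid synthesis stood beside them. *Psat1*, the aminotransferase of serine synthesis, read 3.98, 3.77 and 4.46 with vehicle and 9.68, 10.41 and 10.48 with TM, a difference of 6.12 ± 0.24 (limma adjusted p 1.8e-08). *Aldh18a1*, which makes the precursor of proline and ornithine, rose by 4.71 ± 0.29. With vehicle, *Psat1* lay below the median of all probesets, so that its 69.6-fold change starts in the range of background, whereas the level of *Aldh18a1* was above it.

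The ER was represented by *Derl3*, a channel-forming derlin of ER-associated degradation, *Creld2*, an ER protein with disulfide-rich domains, and *Nucb2*, a calcium-binding protein of the secretory pathway. *Derl3* read 7.92, 7.54 and 7.62 with vehicle and 13.58, 13.86 and 13.77 with TM, a 66.1-fold increase. *Creld2* rose 29.3-fold and *Nucb2* 26.9-fold. The others of the 15 were the predicted gene *Gm17767* at 40.6-fold, *Tes*, a LIM-domain protein of focal adhesions, at 29.9-fold, *Far1*, the acyl-CoA reductase of ether lipid synthesis, at 23.4-fold, the transcriptional coregulator *Ifrd1* at 23.1-fold, *Ccdc134* at 22.1-fold and *Fgf21*. *Fgf21* encodes a hormone that the liver secretes under fasting and stress, and it read 5.65, 6.01 and 5.27 with vehicle and 9.25, 10.07 and 11.03 with TM. The 15 were taken from the called genes whose groups did not overlap, so that this separation was set by the choice. Their limma adjusted p-values are those of the same fit across all probesets.

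Promoter sequence is shown for genes of this group and of the ER lists below, since letter patterns known from promoters of the UPR were found in some of them. The ER stress response element (ERSE), which reads CCAAT, any 9 bases and CCACG, was described as a site where NF-Y binds the CCAAT part and ATF6 or XBP1 the CCACG part. ERSE-II, which reads ATTGG, any base and CCACG, joins the same parts in another order, ATTGG being CCAAT read on the other strand. The core of the amino acid response element (AARE), TGATGNAAN, is the letter pattern bound by ATF4 with C/EBP partners. These letters, on either strand, were searched in the RefSeq promoters of GRCm38.p6, which run from 250 bases before to 50 bases after a gene's start. The following stretches lie upstream of the start, are written 5′ to 3′ on the gene's own strand, and have the matching letters in capitals, so that a match on the opposite strand appears reversed and complemented.
*Derl3*, chr10:75893222-75893280, plus strand: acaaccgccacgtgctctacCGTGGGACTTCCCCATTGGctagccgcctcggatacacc
*Creld2*, chr15:88819500-88819558, plus strand: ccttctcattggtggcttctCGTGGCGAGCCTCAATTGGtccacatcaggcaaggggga
*Alg12*, chr15:88819500-88819558, minus strand: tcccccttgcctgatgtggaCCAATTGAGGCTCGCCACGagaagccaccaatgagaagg
*Syvn1*, chr19:6046512-6046570, plus strand: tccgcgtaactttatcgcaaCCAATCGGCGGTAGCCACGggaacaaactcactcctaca
*Dnajc3*, chr14:118937807-118937865, plus strand: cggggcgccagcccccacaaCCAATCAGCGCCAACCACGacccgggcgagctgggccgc
*Pdia6*, chr12:17266471-17266529, plus strand: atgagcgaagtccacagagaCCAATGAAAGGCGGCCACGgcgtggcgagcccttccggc
*Hspa5*, chr2:34772005-34772063, plus strand: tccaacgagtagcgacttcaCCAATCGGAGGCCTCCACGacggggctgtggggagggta
*Hsp90b1*, chr10:86705513-86705676, minus strand: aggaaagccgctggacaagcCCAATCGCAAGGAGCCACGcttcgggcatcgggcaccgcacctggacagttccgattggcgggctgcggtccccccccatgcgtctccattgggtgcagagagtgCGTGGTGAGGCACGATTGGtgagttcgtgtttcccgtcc
*Calr*, chr8:84847055-84847113, minus strand: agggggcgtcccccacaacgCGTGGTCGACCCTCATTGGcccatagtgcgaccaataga
*Herpud1* (ERSE-II), chr8:94386357-94386407, plus strand: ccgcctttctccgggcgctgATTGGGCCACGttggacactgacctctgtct
*Nupr1* (AARE core), chr7:126625553-126625601, minus strand: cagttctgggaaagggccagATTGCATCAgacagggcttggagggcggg
*Atf3* (AARE core), chr1:191183416-191183464, minus strand: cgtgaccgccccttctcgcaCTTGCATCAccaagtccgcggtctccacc
*Fgf21* (AARE core), chr7:45615602-45615650, minus strand: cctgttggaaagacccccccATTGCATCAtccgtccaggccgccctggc
*Chac1* (AARE core), chr2:119351028-119351076, plus strand: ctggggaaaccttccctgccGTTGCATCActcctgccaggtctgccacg

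*Hspa5*, the gene of the chaperone BiP, had its ERSE between -65 and -47 from the start, and *Hsp90b1*, the gene of GRP94, had a pair of them, at -212 to -194 and at -107 to -89. *Creld2* and *Alg12* are neighbors read in opposite directions, and the same 19 letters between them counted as the ERSE of both. Both genes were called, at 4.87 and 2.00. Of the 153 genes with a promoter in the table that were over 4-fold higher, 5 (3.27%) held an ERSE. The share was 6 of 1199 (0.5%) for genes called higher by up to 4-fold, 8 of 12099 (0.0661%) for genes not called and 1 of 1001 (0.0999%) for lower genes, that one being *Acacb*, an acetyl-CoA carboxylase, at -1.10. ERSE-II was found in 3, 4, 2 and 0 genes of the same groups.

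The AARE core, a much shorter pattern, was in 8 of the 153 genes over 4-fold higher (5.23%) and in 3.21% of genes not called. The CCAAT box, which every ERSE and ERSE-II contains, was in 93 of the 153 (60.8%), in 50.2% of the genes higher by up to 4-fold, in 41% of genes not called and in 41.7% of lower genes. Over all 32851 promoters of the table, 0.119% held an ERSE, 0.0365% an ERSE-II, 3.95% the AARE core and 37.4% a CCAAT box. These are counts of letters, and most genes that changed, among them *Ddit3* and *Psat1*, had none of the 3 longer patterns in this window.

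**Figure D2:**
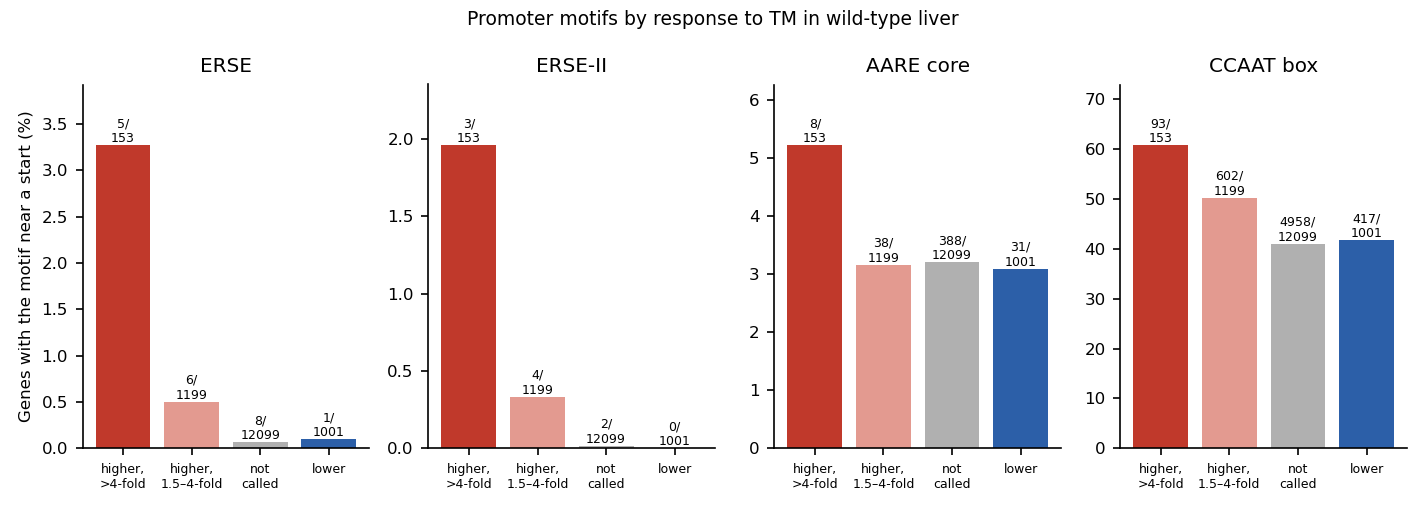
Share of genes with each letter pattern in the RefSeq promoter (y axis, percent, 1 panel per pattern) for genes over 4-fold higher, higher by up to 4-fold, not called and lower with TM. Numbers above the bars are genes with a match over genes with a promoter. The share with an ERSE is 3.27% in the first group and 0.0661% among genes not called, while the AARE core ranges only from 3.1% to 5.23%.

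The 15 genes with the largest decreases came from several functions. *Keg1*, of the glycine N-acyltransferase family, read 10.78, 12.43 and 10.67 with vehicle and 7.80, 6.16 and 6.80 with TM. The difference was -4.37 ± 0.74, or 20.7-fold, with a limma adjusted p of 0.0012. *Igfals*, the liver-made acid-labile subunit that carries insulin-like growth factors in blood, read 10.79, 10.73 and 10.81 with vehicle and 6.92, 7.01 and 6.96 with TM and fell 14.1-fold. *Srebf1*, which encodes the lipogenic transcription factor SREBP1, read 11.74, 11.12 and 11.84 with vehicle and 7.99, 7.88 and 7.79 with TM and fell 12.8-fold. In each of these the lowest vehicle animal was above the highest TM animal. The 15 were taken from called genes whose groups did not overlap, so that this separation was set by the choice.

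*Acot3*, a peroxisomal acyl-CoA thioesterase, fell 12.6-fold and *Cldn2*, a tight-junction claudin, 11.8-fold. *Iigp1* and *Gm4951*, of the interferon-inducible GTPases, fell 8.59-fold and 11.7-fold. Further down the list were *Nrep* (-3.59), *Dixdc1* (-2.99), *Phlda1* (-2.95) and *4931408D14Rik* (-3.07). *Nxpe2* (-3.89), *Dclk3* (-3.59), *C730036E19Rik* (-3.44) and *Tgm1* (-3.13) ended below the median of all probesets with TM, in the range of background.

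**Figure D3:**
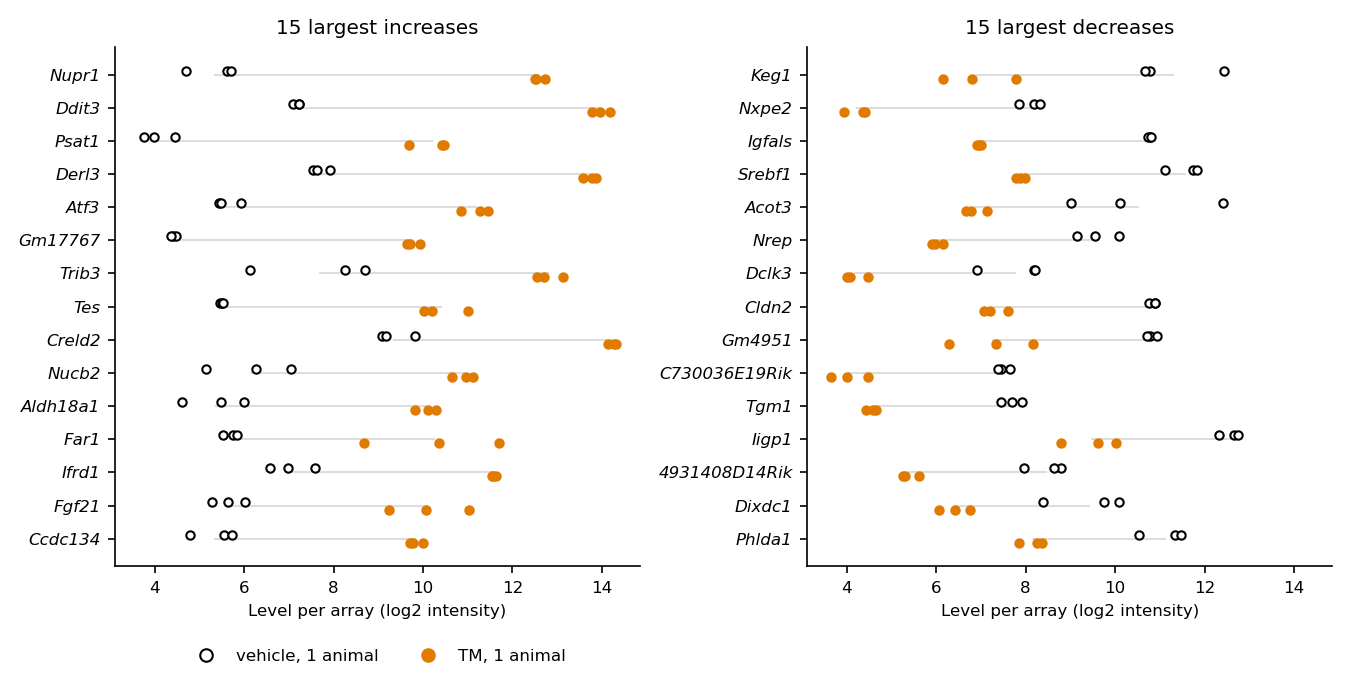
Log2 signal of each of the 6 animals (x axis) for the 15 genes with the largest increases and the 15 with the largest decreases (y axis), vehicle and TM in different colors. For each of the 30 genes the 3 TM animals lie on one side of the 3 vehicle animals, which was a condition of their choice. The spread within a group differs between genes. It is wide for some, such as *Acot3* with vehicle (9.01 to 12.42) and *Far1* with TM (8.68 to 11.70).

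Among the called genes with the brightest signals the changes were smaller. The higher ones included the ER chaperone genes *Hspa5* (1.88) and *Calr* (0.83), *Ppib*, the cyclophilin of the ER (0.77), the lysosomal protease *Ctsl* (0.86), the lipid droplet coat *Plin2* (0.64) and *Tat*, tyrosine aminotransferase (0.89). The lower ones included *Hc*, complement C5 (-1.39), *Fn1*, fibronectin (-1.22), *Inmt*, a methyltransferase (-1.09), *Slc10a1*, the transporter that takes up bile acids from blood (-0.88), and *Hsd3b7*, a bile acid synthesis enzyme (-0.82).

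Of the 25 sensors and effectors of the UPR measured, 13 were higher and 1 was lower, with a median of 0.74. The genes of all 3 sensors rose, by 2.28 for *Eif2ak3* (PERK), 1.94 for *Atf6* and 1.17 for *Ern1* (IRE1). *Atf4* read 10.44, 10.89 and 10.38 with vehicle and 13.25, 12.97 and 12.99 with TM, a 5.64-fold increase. *Ppp1r15a*, which encodes GADD34, the factor that leads eIF2alpha back to its unphosphorylated form, rose by 2.48 ± 0.09. *Ppp1r15b*, its constitutive relative, differed by -0.29 and was not called.

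Relatives of ATF6 and ATF4 were among the higher genes as well, with *Atf5* at 2.10, *Creb3l2* at 1.75, *Atf6b* at 1.70 and *Creb3* at 0.96. The probeset of *Xbp1*, whose mRNA IRE1 splices, read 12.45, 12.53 and 12.41 with vehicle and 12.66, 12.50 and 12.54 with TM, a difference of 0.10 that did not pass the test. Array probes of this kind do not separate the spliced from the unspliced form. None of the other eIF2alpha kinases was called higher, at 0.02 for *Eif2ak1* and -0.10 for *Eif2ak4*, neither called, and -0.62 for *Eif2ak2* (PKR), which was called lower but lost that call without vehicle replicate 2 or without TM replicate 2.

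Chaperones of the ER lumen formed the list with the highest median. Of 17 HSP70 and HSP90 chaperones and their partners, 14 were higher and 0 lower (0 unadjusted), with a median of 1.70. *Hspa5* read 12.34, 13.16 and 12.32 with vehicle and 14.43, 14.49 and 14.53 with TM, a 3.67-fold increase from an already bright signal. *Hsp90b1* rose 2.33-fold. The J-domain partners of BiP rose by 2.61 for *Dnajb11*, 2.31 for *Dnajb9* and 2.07 for *Dnajc3*. *Sdf2l1*, a partner of these J proteins, rose by 4.15 and *Manf*, a secreted BiP-binding neurotrophic factor, by 3.10. *Sil1* and *Sec63*, also partners of BiP, differed by 0.32 and 0.33 and were not called.

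Of 23 disulfide isomerases and oxidases, 9 were higher and 0 lower (3 unadjusted), with a median of 0.42. *Pdia4* rose by 3.14, *Pdia6* by 1.90 and *Pdia3* by 1.67. Both ER oxidases, *Ero1a* (2.56) and *Ero1b* (2.63), which pass electrons from these isomerases to oxygen, rose. *P4hb*, the founding disulfide isomerase, read 13.41, 13.52 and 13.45 with vehicle and 13.99, 14.12 and 14.01 with TM, and its difference of 0.58 lay just under the 1.5-fold limit. *Tmx4* and *Qsox1* had differences of -0.55 and -0.51 and were not called.

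ER-associated degradation, which pulls misfolded proteins back to the cytosol for the proteasome, had 22 of 31 genes higher and 0 lower (0 unadjusted), with a median of 0.94. The ubiquitin ligase gene *Syvn1* (HRD1) read 8.76, 9.47 and 8.84 with vehicle and 13.02, 12.89 and 12.90 with TM. Its partner *Sel1l* rose by 3.11 ± 0.11, *Selenos* by 2.20, *Herpud1* by 1.74 and the rhomboid protease gene *Rhbdd1* by 1.89. The count stayed at 22 whichever of the 6 arrays was left out. By contrast, of 32 subunits of the proteasome itself, 0 were higher and 0 lower (3 and 3 unadjusted), and all 32 had differences below 0.5 in size. The median size over all genes was 0.184, so that most genes lay below 0.5 as well.

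The calnexin cycle, which retains glycoproteins by the sugar chain that TM prevents, had 7 of 13 genes higher and 0 lower (2 unadjusted). *Uggt1*, the glucosyltransferase that senses misfolding, rose by 1.49, *Mogs*, the first glucosidase, by 1.15 and *Calr*, calreticulin, by 0.83. *Canx*, calnexin, differed by 0.29 and was not called. Synthesis of the lipid-linked sugar chain had 14 of 31 genes higher and 0 lower (5 unadjusted). *Dpagt1*, the target of TM, read 9.14, 9.43 and 9.05 with vehicle and 10.27, 10.54 and 10.18 with TM. It rose 2.18-fold, with a limma adjusted p of 4.61e-05. *Gfpt1*, which starts the hexosamine pathway, rose by 4.20 and *Gmppb*, which makes GDP-mannose, by 3.28. Those 14 calls became 9 where probesets that may match several transcripts were left out.

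Genes for entry into the ER and for exit from it were mostly higher as well. Of 32 genes of the translocon, the signal peptidase and the oligosaccharyltransferase, 23 were higher and 0 lower (1 unadjusted), with a median of 0.88. *Sec11a*, the catalytic signal peptidase subunit, rose by 1.85, *Srprb*, a subunit of the receptor of the signal recognition particle, by 2.75 and *Stt3b*, a catalytic subunit of the oligosaccharyltransferase, by 1.31. Of 45 genes of COPII and COPI vesicles, 30 were higher and 2 lower, with a median of 0.83. *Stx5a*, a Golgi SNARE, rose by 2.26, *Tmed3*, a cargo receptor, by 2.51, and *Sec23a*, a COPII coat protein, by 1.09.

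ER calcium handling was mixed. Of 24 genes, 6 were higher and 2 lower, with a median of -0.06 and with 1 to 4 lower when an array was left out, the 4 without vehicle replicate 2. *Wfs1*, wolframin, rose by 3.10 and *Atp2a2*, the pump SERCA2 that fills the ER with calcium, by 2.25. *Stim2*, a sensor of ER calcium, fell by 0.91. *Stim1*, its relative, differed by 0.00, and the calcium release channels *Itpr2* and *Itpr3* -0.10 and -0.12, none of them called.

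**Figure D4:**
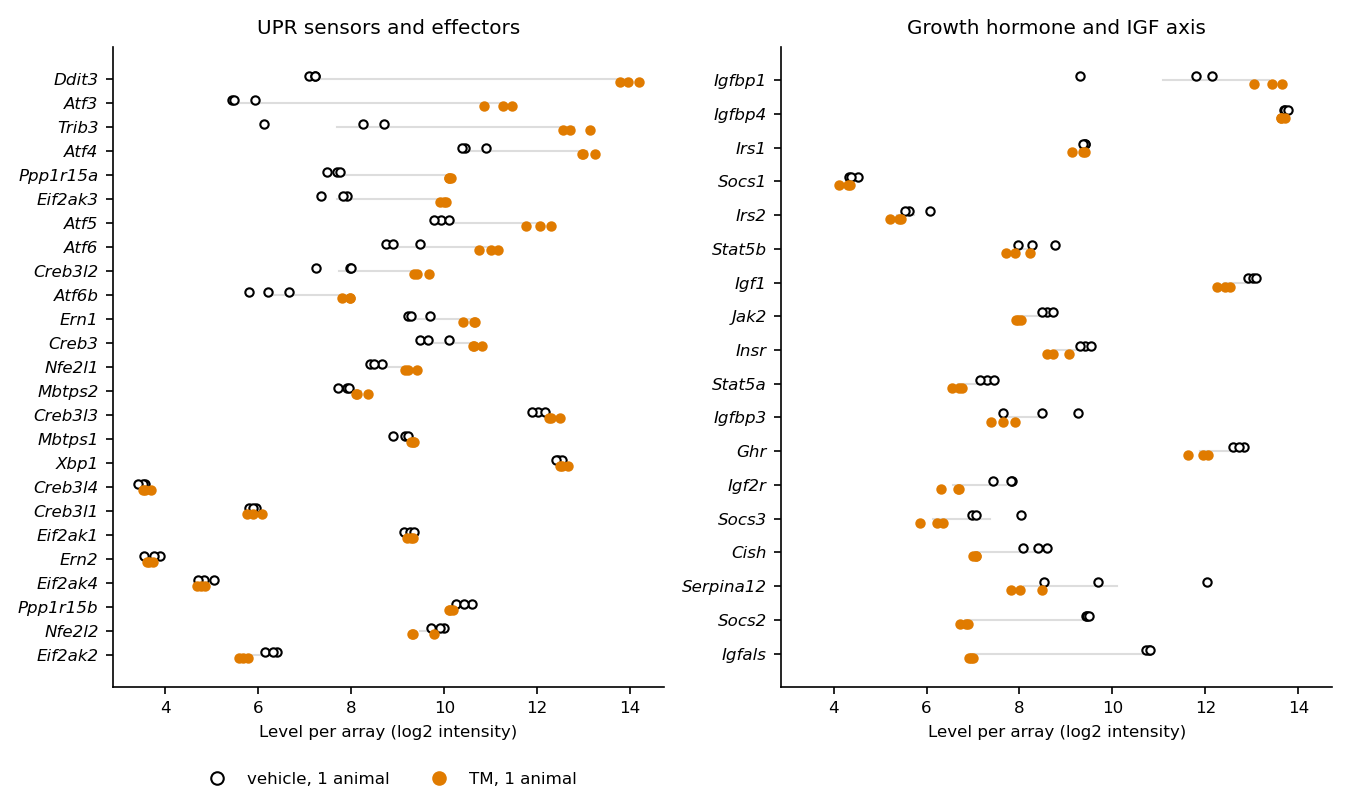
Log2 signal of each animal (x axis) for 25 UPR sensors and effectors and 18 genes of the growth hormone and IGF axis (y axis), vehicle as open and TM as filled circles. Grey lines join the group means. *Ddit3* and *Atf4* lie higher in all 3 TM animals, *Xbp1* overlaps, and *Igfals* and *Socs2* lie lower.

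Genes that supply amino acids to translation, many of them known targets of ATF4, were called selectively. Of 19 cytosolic tRNA synthetases, 13 were higher and 0 lower (0 unadjusted), with a median of 0.86, led by *Wars* (2.10), *Gars* (1.5) and *Iars* (1.70). Those for glutamine and cysteine were not called, with *Qars* at 0.01 and *Cars* at 0.03. Of 16 mitochondrial tRNA synthetases only *Ears2* (1.63), *Cars2* (0.95) and *Wars2* (0.70) rose, and *Lars2* fell by 1.08.

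Serine, one-carbon and asparagine synthesis had 6 of 16 genes higher and 2 lower. Within serine synthesis, *Psat1* and *Psph* (1.41) were higher while *Phgdh*, the first enzyme, differed by -0.42 and was not called. In the folate cycle the mitochondrial *Mthfd2* rose by 1.26 and the cytosolic *Mthfd1* and *Shmt1* fell, with differences of -1.05 and -0.79. *Asns*, asparagine synthetase, read 6.12, 7.95 and 6.99 with vehicle and 9.47, 9.08 and 8.98 with TM. Its difference of 2.15 was larger than many that were called, but the limma adjusted p was 0.0841. Of 19 amino acid transporters, 5 were higher and 1 lower, with *Slc7a1*, for cationic amino acids, at 2.97 and *Slc3a2*, the shared heavy chain of several carriers, at 1.2. The lower one was *Slc1a2*, a glutamate transporter, at -0.66, which lost its call without TM replicate 1 or 2, without vehicle replicate 2 or 3 and with only the 6 wild-type arrays.

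Genes of ribosome assembly were mostly higher and those of ribosomal proteins mostly not called. Of 40 genes of ribosome biogenesis, 30 were higher and 0 lower (1 unadjusted), with a median of 0.92 and with 26 to 32 higher when 1 array was left out and 11 by the methods' t-test, which takes the spread from each probeset alone, after adjustment. *Nop58*, of the box C/D ribonucleoproteins, read 5.49, 6.36 and 5.24 with vehicle and 8.93, 8.20 and 7.91 with TM. *Gar1*, of the H/ACA particles, rose by 1.85 and *Gnl3*, nucleostemin, by 1.57. Of 32 cytosolic ribosomal proteins, 2 were higher and 0 lower (0 unadjusted), and 30 of the 32 had differences under 0.5 in size, beside a median size of 0.184 over all genes. Translation factors had 14 of 28 genes higher and 1 lower, with a median of 0.60, among them *Eif1a* (1.93), *Eif3a* (1.42) and the translation repressor *Eif4ebp1* (1.04).

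Growth arrest and damage genes linked to p53 had 8 of 17 members higher and 2 lower, with a median of 0.78. *Cdkn1a*, the cyclin-dependent kinase inhibitor p21, read 6.62, 6.07 and 6.08 with vehicle and 9.43, 10.67 and 10.12 with TM, a 14.1-fold increase. *Ddit4*, an inhibitor of mTORC1, rose by 3.83 and *Gadd45a* by 2.64, whereas *Sesn3*, a sestrin, fell by 0.92. *Mdm2*, the ubiquitin ligase for p53, differed by 0.57 and fell just short of the fold limit.

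Genes of the BCL2 family and cell death were more often lower, 5 of 20, with 1 higher and a median of -0.19. By the methods' t-test after adjustment only 1 was lower. The higher one was *Chac1*, a glutathione-degrading enzyme induced by ATF4, at 3.53. The lower ones were the BH3-only genes *Bmf*, *Bbc3*, *Bik* and *Bid*, at -2.81, -1.29, -1.14 and -0.71, and the death receptor *Fas* at -0.62, whose call was lost without vehicle replicate 1 or 3 or without TM replicate 1 or 2. *Bcl2l11* (BIM), a reported target of CHOP, differed by -0.39, *Bcl2* -0.10 and *Tnfrsf10b* (the TRAIL receptor) 0.00, none called. *Bmf* read 8.71, 6.12 and 8.62 with vehicle and 4.84, 4.98 and 5.21 with TM, with every TM animal below every vehicle animal. It lost its call where probesets that may match several transcripts were left out, and *Bid* with the mean of all its probesets.

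The immediate early list held 22 genes, with 5 higher and 2 lower. Apart from *Atf3*, *Myc* (1.5), *Jun* (1.09), *Ier5* (1.23) and *Mafk* (0.75) rose, while *Ier2* and *Dusp1* fell, with differences of -1.25 and -1.17. The count was 3 higher without the 2 arrays with Y-linked signal, where *Jun* and *Mafk* lost their calls, and 4 lower without vehicle replicate 2. *Fos*, *Egr2* and *Nr4a1* differed by -0.18, 0.16 and -0.21, not called. Kruppel-like factors had 3 of 13 genes higher and 0 lower (3 unadjusted), of which *Klf3* (1.21) alone remained when vehicle replicate 2 was left out. The count was also 1 without vehicle replicate 1, without TM replicate 2 and with only the 6 wild-type arrays.

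The C/EBP family, with roles in hepatocyte identity and in the stress response, had 2 of 4 genes higher and 1 lower. *Cebpa*, encoding C/EBPalpha, read 11.92, 11.86 and 12.12 with vehicle and 10.82, 10.68 and 11 with TM, and fell by 1.13 ± 0.11. *Cebpg* rose by 1.17 and *Cebpd* by 1.38, a call lost without vehicle replicate 1, and *Cebpb* differed by 0.33 without passing. Of 15 lineage factors, 1 was higher and 5 lower, but 3 were lower without TM replicate 2 or TM replicate 3, and 2 with only the 6 wild-type arrays or by the methods' t-test after adjustment. *Foxa2* was lower at -1.73 and *Hlf* at -1.41, while *Hnf4a* read 12.32, 12.67 and 12.42 with vehicle and 12.94, 12.93 and 12.62 with TM, a difference of 0.36 under the fold limit. Of 28 nuclear receptors and coactivators, 2 were higher and 8 lower, with a median of -0.30. *Ppargc1a*, the coactivator of oxidative and gluconeogenic genes, was lower at -2.90, *Ppargc1b* at -1.80, *Ppara*, the receptor for fatty acids, at -1.67 and *Nr1i3*, the xenobiotic receptor CAR, at -1.84.

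Many lipid synthesis genes were lower together with *Srebf1*. Of 26 genes of fatty acid synthesis and triglyceride assembly, 12 were lower and 2 higher, with a median of -0.58 and with 9 to 11 lower when 1 array was left out. *Fasn*, fatty acid synthase, read 11.55, 11.14 and 11.30 with vehicle and 9.46, 10.16 and 9.97 with TM. It was lower at -1.47, the desaturase *Fads1* at -0.71, and *Gpam*, which adds the first acyl chain to glycerol phosphate, at -1.67. The 2 that rose were the lipins *Lpin1* (1.98) and *Lpin3* (2.88), phosphatases that make diacylglycerol.

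Fatty acid oxidation and ketogenesis had 4 of 32 genes lower and 1 higher, with 2 (without TM replicate 2) to 6 (without TM replicate 3) lower when 1 array was left out. *Acot2*, a mitochondrial acyl-CoA thioesterase, rose by 2.23 while its peroxisomal relative *Acot3* had one of the largest decreases. *Bdh1*, of ketone body synthesis, fell by 0.97. *Cpt1a*, the entry step of mitochondrial oxidation, read 11.72, 12.06 and 11.92 with vehicle and 11.89, 11.71 and 12.02 with TM, a difference of -0.03.

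Sterol synthesis was split, with 3 of 22 genes higher and 6 lower. *Mvd* rose by 2.54 and *Lss* by 0.84, while *Idi1*, *Msmo1* and *Insig1* fell, with differences of -1.73, -1.2 and -0.95. *Srebf2*, encoding the sterol regulator SREBP2, fell by 0.87. Between 4 (without TM replicate 2) and 9 (without vehicle replicate 2) sterol genes were lower when an array was left out. Of 22 lipid droplet proteins and lipases, 3 were higher and 5 lower, with *Ces1g* and *Ces1d*, carboxylesterases of lipoprotein assembly and lipid breakdown, at -2.75 and -2.75 (close paralogs, whose probes may share signal), and *Hilpda*, an inhibitor of lipolysis, at 0.78.

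Of 18 genes for apolipoproteins and assembly of very low density lipoprotein, 6 were lower and 0 higher (0 unadjusted), with a median of -0.39. *Mttp*, which loads lipid onto apolipoprotein B, read 11.44, 11.38 and 11.35 with vehicle and 10.54, 10.49 and 10.88 with TM, and fell by 0.75. *Tm6sf2*, also needed for this loading, was lower at -1.04, and *Apoa4*, *Apoc2* and *Apon* at -0.86, -0.80 and -1.79. *Apob* differed by -0.75, but was not called (limma adjusted p 0.0511), and *Apoa1* and *Apoe* differed by -0.13 and -0.01.

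Bile acid synthesis and transport had 9 of 28 genes lower and 1 higher, with a median of -0.45. The count of lower genes was 3 by the methods' t-test after adjustment. The sterol transporters *Abcg5* and *Abcg8*, which share a promoter region and work as a pair, fell, with differences of -1.73 and -1.99. *Abcg8* read 9.69, 9.51 and 9.62 with vehicle and 7.82, 7.59 and 7.43 with TM. *Slco2b1*, an organic anion transporter, was lower at -1.16 and *Akr1d1*, of bile acid synthesis, at -1.34. *Abcb4*, which moves phospholipid into bile, was the one that rose, by 0.99.

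Of 35 cytochrome P450 genes, 4 (11.4%) were lower and 1 (2.86%) higher, beside 6.9% and 8.92% of all genes, a difference that was not tested. Between 1 and 3 were lower when any single array was left out, the fewest without vehicle replicate 1. The higher one, *Cyp2b10*, read 9.56, 8.35 and 9.56 with vehicle and 12.61, 12.93 and 12.89 with TM. The 12.6-fold increase is that of the gene best known as a target of CAR, whose own gene *Nr1i3* was lower. Conjugating enzymes had 6 of 35 genes lower and 0 higher (0 unadjusted). They had 4 lower without TM replicate 3 and 10 where Y-linked signal was fitted as a covariate, and the lower ones included *Ugt2a3* (-1.01) and *Sult1b1* (-0.91).

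Secreted plasma proteins were lower in part. Of 36 coagulation and complement genes, 10 were lower and 0 higher (0 unadjusted), with a median of -0.45 and 34 of 36 below 0. The median over all genes was -0.06, and the share of all genes below 0 was not counted. *Hc* read 12.96, 13.11 and 13.06 with vehicle and 11.80, 11.63 and 11.54 with TM. *Klkb1*, plasma prekallikrein, was lower at -1.06, *C1s1*, a complement protease, at -0.71 and *Serpind1*, heparin cofactor II, at -0.83. Of 27 acute phase genes, 2 were higher and 2 lower. *Apcs*, serum amyloid P, rose by 1.34, *Crp* and *Serpina3n* fell, with differences of -0.71 and -1.09, and *Hamp*, hepcidin, differed by 0.50, uncalled. *Alb*, albumin, read 14.94, 14.87 and 14.90 with vehicle and 14.88, 14.90 and 14.96 with TM, among the brightest signals of the array.

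Genes of glucose metabolism had 5 of 22 members lower and 2 higher, with a median of -0.37. *Gys2*, liver glycogen synthase, was lower at -1.67, *Pygl*, glycogen phosphorylase, at -0.95 and *Pklr*, liver pyruvate kinase, at -1.29, while *Phkg2*, a phosphorylase kinase subunit, rose by 2.16. The gluconeogenic genes *Pck1* and *G6pc* differed by -0.85 and 1.95 and were not called. *G6pc* read 9.45, 12.02 and 8.68 with vehicle and 12.08, 11.99 and 11.94 with TM, so that the vehicle animals themselves differed widely. Of 32 genes of the urea cycle and amino acid breakdown, 5 were lower and 1, *Tat*, higher, with 2 (without TM replicate 2) to 8 (without TM replicate 1) lower when an array was left out. *Hal*, histidase, was lower at -1.97 and *Otc*, of the urea cycle, at -0.72.

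The growth hormone and IGF axis had 10 of 18 genes lower, the largest share in the 58 lists described here, with 1 higher and a median of -0.63. Without vehicle replicate 3, 6 were lower. *Socs2*, a feedback inhibitor induced by growth hormone, read 9.43, 9.46 and 9.5 with vehicle and 6.73, 6.86 and 6.89 with TM, a 6.22-fold decrease. *Ghr*, the growth hormone receptor, was lower at -0.84, and *Igf2r* at -1.14. *Igfbp1*, a binding protein that rises in fasting, was the higher one and read 12.14, 9.30 and 11.80 with vehicle and 13.65, 13.05 and 13.43 with TM. Vehicle replicate 2 was the low one here, and the difference was 2.30 with it and 1.41 without it. *Serpina12* read 8.54, 12.04 and 9.70 with vehicle and 8.48, 8.01 and 7.82 with TM, and its difference of -1.99 was not called (limma adjusted p 0.367).

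Of 18 hormones secreted by the liver, 4 were higher and 2 lower. Besides *Fgf21* and *Igfbp1*, *Angptl4*, an inhibitor of lipoprotein lipase, rose by 2.07 and *Angptl6* by 1.36. *Angptl4* lost its call where probesets that may match several transcripts were left out, and *Igfbp1* by the methods' t-test after adjustment. *Lect2* fell by 1.04, and *Inhbe* and *Fetub* differed by -0.49 and 0.00 without a call. The list did not have a common direction, and its median was -0.05.

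Clock genes were affected on both sides, 5 of 18 higher and 3 lower. *Per1*, a repressor of the clock, rose by 1.99, *Clock* by 0.92 and *Rora*, an activator of *Arntl*, by 1.32. *Arntl* itself, encoding BMAL1, rose by 2.79 on its brightest probeset but differed by -0.09 where probesets that may match several transcripts were left out. *Per3* fell by 1.42. Between 2 and 5 clock genes were lower when an array was left out, the 5 without vehicle replicate 2 and the 2 without vehicle replicate 1 or 3 or TM replicate 2 or 3.

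The lists for protein quality control in the cytosol and the mitochondrion held smaller shares of called genes than most ER lists, a difference that was not tested. Of 24 cytosolic heat shock chaperones, 1 was higher and 3 lower. *Bag3*, a cochaperone of selective autophagy, rose by 1.91, and *Hsp90aa1* fell by 1.02, while *Hspa1a*, *Hspa8* and *Dnajb1* differed by -0.07, -0.25 and -0.01, uncalled. Of 18 mitochondrial chaperones and proteases, 6 were higher and 0 lower (1 unadjusted), with *Clpx* at 1.27 and *Hspa9*, mitochondrial HSP70, at 0.74. *Hspd1* (HSP60) differed by -0.12.

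Of 20 genes of the NRF2 antioxidant response, 6 were lower and 1 higher, with a median of -0.36, and 4 were lower without TM replicate 2 or vehicle replicate 3. *Gclc* and *Gclm*, the subunits of the enzyme that starts glutathione synthesis, fell, with differences of -0.99 and -0.76, and *Srxn1*, sulfiredoxin, rose by 1.15. *Hmox1* and *Txnrd1* differed by 0.55 and -0.02, not called. Subunits of oxidative phosphorylation had 4 of 46 genes lower and 0 higher (0 unadjusted), or 2 lower without TM replicate 2. Their differences were small, 41 of 46 under 0.5 in size, beside a median size of 0.184 over all genes. Of the 46, 44 lay below 0, with a median of -0.25, beside a median of -0.06 over all genes. The share of all genes below 0 was not counted. Of 28 genes of autophagy and lysosome, 7 were higher and 0 lower (8 unadjusted), among them *Atg13* (2.00) and *Sqstm1*, encoding p62 (1.26).

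Targets of NF-kB and chemokines had 7 of 24 genes lower and 3 higher. *Nfkbiz* read 6.96, 6.45 and 7.18 with vehicle and 5.05, 5.41 and 5.08 with TM, and *Birc3*, *Tnfaip3* and *Cxcl1* fell, with differences of -1.32, -0.91 and -1.16. Of the factor itself, *Rela* rose by 0.78. The inhibitors went in different directions, *Nfkbia* at -0.79 and *Nfkbib* at 1.07. Markers of neutrophils had mean levels of 5.62, 4.97 and 5.67 with vehicle and 4.89, 5.13 and 4.83 with TM, and those of T, B and NK cells 5.87, 5.32 and 5.67 against 5.25, 5.33 and 5.36, both near the median of all probesets. Their part in this list was not tested.

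Iron and zinc genes had 4 of 21 members higher and 1 lower. All 4 that rose are metal transporters, *Slc30a5* (1.6), *Slc30a7* (1.26), *Slc11a2* (1.48) and *Slc39a14* (1.18), and *Slc40a1*, the iron exporter ferroportin, fell by 0.97. *Mt2*, a metallothionein, read 13.36, 8.09 and 13.23 with vehicle and 13.77, 14.09 and 13.71 with TM. Vehicle replicate 2 was the low one, and the difference of 2.30 was not called. Zonation and Wnt genes had 5 of 20 members lower and 0 higher (2 unadjusted), including *Lgr5* (-1.21), a receptor of pericentral hepatocytes, and the periportal *Hal*, while the pericentral *Glul* and *Cyp2e1* differed by -0.41 and 0.02 and the periportal *Ass1* 0.05, none called.

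Of 33 cell cycle and replication genes, 5 were higher and 5 lower, but 2 to 4 were higher and 2 to 9 lower when 1 array was left out, with the fewest of each without vehicle replicate 3 and the 9 without vehicle replicate 2. *Ccne2* rose by 2.01 and *Cdk1* fell by 1.09. Of 10 mRNAs that earlier work named as cut by IRE1, 4 were lower and 0 higher (0 unadjusted). *Ces1g* was lower at -2.75 and *Hgsnat*, of lysosomal heparan sulfate breakdown, at -0.68. *Pdgfrb*, *Col6a1* and *Sparc* of this list, at -0.87, -0.56 and -0.98, are genes of stellate cells, whose 12 markers had mean levels of 9.02, 8.18 and 9.13 with vehicle and 8.15, 7.92 and 8.21 with TM. The part of these cells in the list was not tested. *Pdgfrb* lost its call without vehicle replicate 1 or 3 or without TM replicate 1 or 2, and the list had 2 to 6 lower genes when 1 array was left out, the 6 without vehicle replicate 2.

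Markers of other liver cells were mostly not called. Of 12 stellate cell markers, 3 were lower and 0 higher (0 unadjusted), with a median of -0.59, and the count of lower ones ran from 0 without vehicle replicate 3 to 7 without vehicle replicate 2. Of 13 Kupffer cell markers, 1 was higher and 0 lower (0 unadjusted), but 5 were lower without vehicle replicate 2. Of 11 endothelial markers, 2 were lower and 0 higher (0 unadjusted), and 0 were lower without vehicle replicate 3. Cholangiocyte, lymphocyte, neutrophil and erythroid markers gave 0 calls in either direction, with 1, 4, 2 and 0 lower and 0 higher unadjusted. Of 8 hepatocyte markers, *Tat* was higher and 0 lower (1 unadjusted). In all cases above where a list had 0 genes in a direction, the methods' t-test after the same adjustment also gave 0. It could hardly have given more. Of its 764 higher genes 763 were among the limma calls, as were all 486 lower ones. That test made fewer calls in all, and it reduced the higher genes of COPII and COPI vesicles from 30 to 16, of ER-associated degradation from 22 to 15, of the translocon list from 23 to 17 and of translation factors from 14 to 5. Lower genes became 3 in place of 12 in fatty acid synthesis, 1 in place of 6 in sterol synthesis, 5 in place of 10 in coagulation and complement and 4 in place of 10 in the growth hormone and IGF axis.

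**Figure D5:**
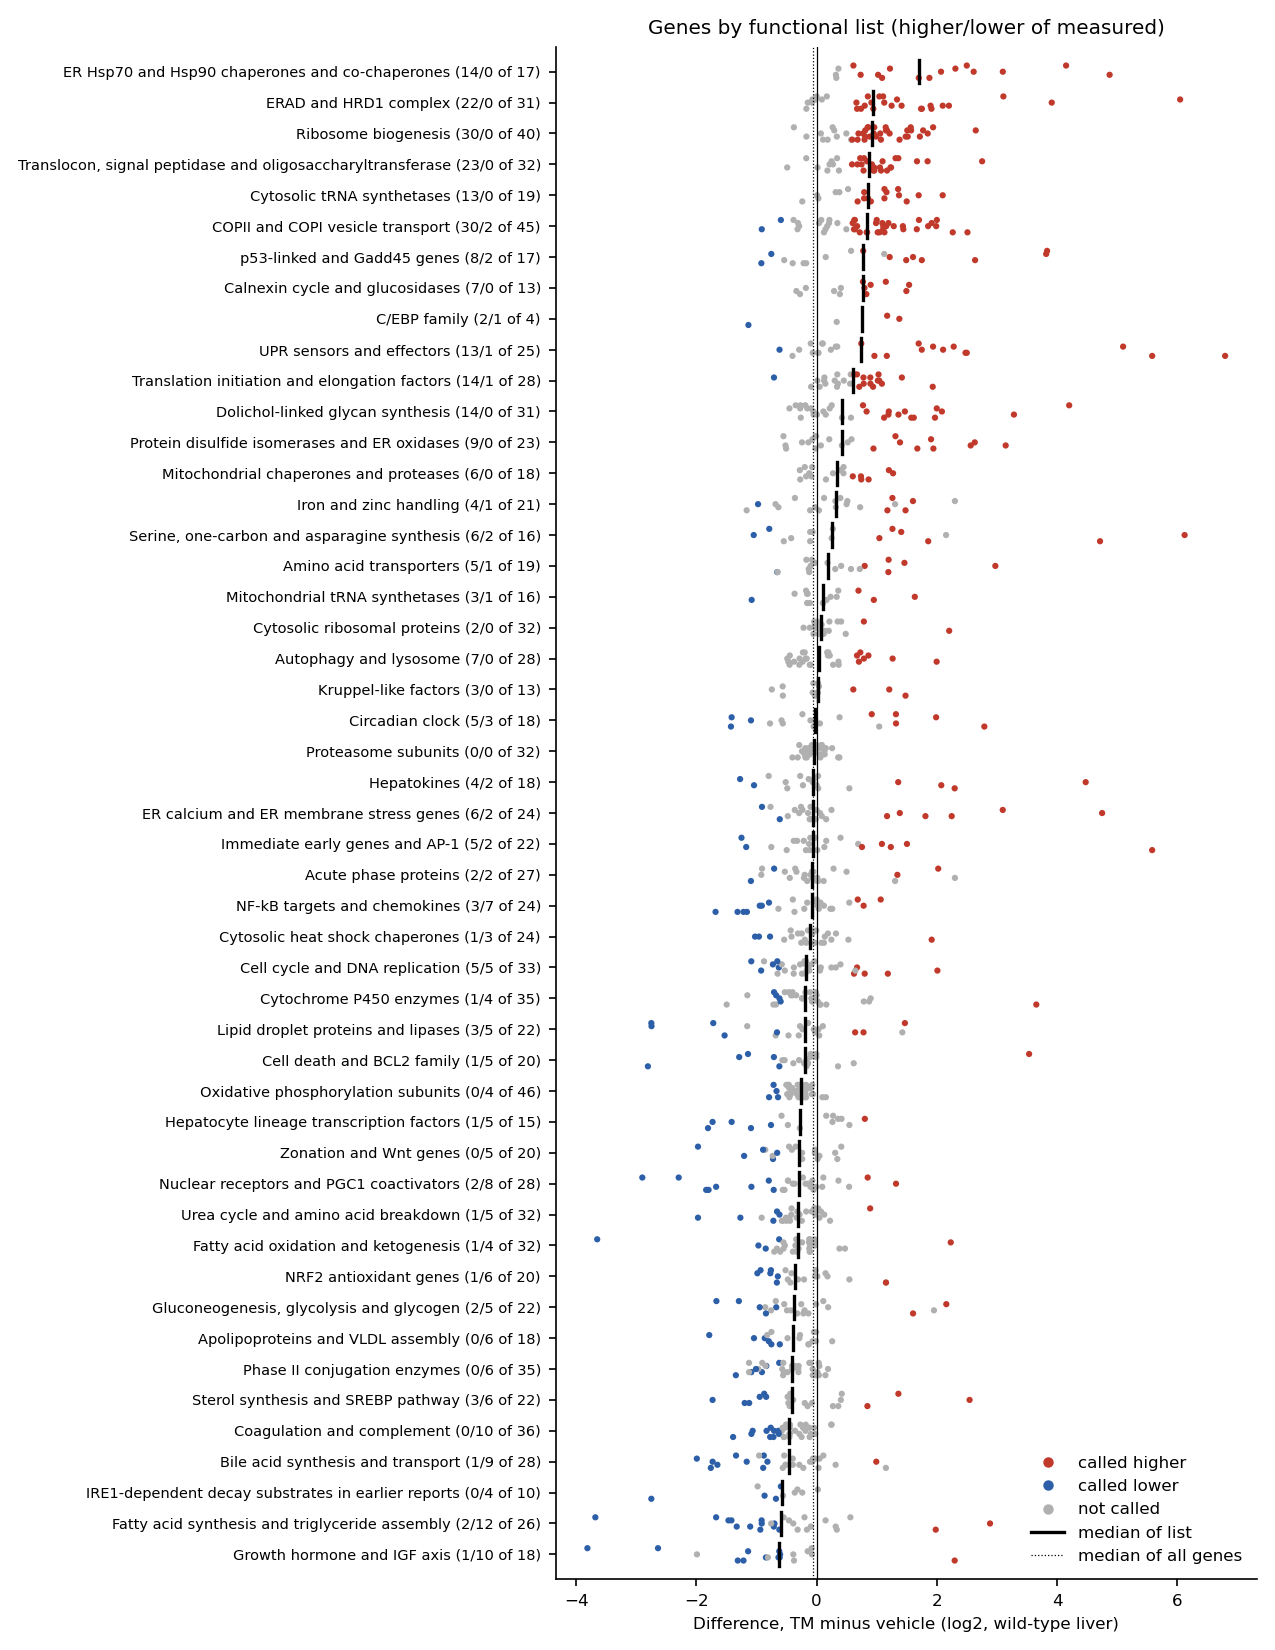
Difference TM minus vehicle (x axis, log2) of the members of each functional list (y axis), 1 point per gene, colored by its call, with the median of the list as a bar. Lists of ER protein handling, tRNA synthetases and ribosome biogenesis lie to the right of 0, with medians up to 1.70, and lists of lipid synthesis and growth hormone signaling to the left, with medians of -0.58 and -0.63.

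The genes also measured by qRT-PCR were chosen on livers of this kind and are not independent of these results. On the arrays, 11 of 24 of them were higher and 9 lower. All 11 belong to the UPR or the ER, from *Ddit3* to *Hsp90b1*, and the 9 to lipid metabolism and its regulators, from *Srebf1* (-3.68) to *Acaca*, acetyl-CoA carboxylase (-0.62), which lost its call without vehicle replicate 1 or 3 or without TM replicate 1 or 3. The reference gene *Btf3* read 10.79, 10.96 and 11.06 with vehicle and 10.96, 11.14 and 11.24 with TM, a difference of 0.17, and its 3 probesets ranged from -0.01 to 0.17 with 0 called.

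Different probesets of a gene did not always read alike. Of 1762 called genes with over 1 probeset, 2 had another probeset called in the opposite direction. Among the genes named above, the lowest reading of another probeset lay near 0 for the increases of *Ern1* (-0.08), *Ears2* (-0.11), *Cars2* (-0.04), *Uggt1* (-0.04), *Slc7a1* (-0.03) and *Rora* (-0.07), and the highest for the decreases of *Bmf* (0.02), *Lars2* (0.09), *Lgr5* (0.06), *Acacb* (0.03) and *Acaca* (0.14). The brightest probeset carried each of those calls, and a second probeset was called in the same direction for *Ern1*, *Ears2*, *Cars2*, *Uggt1*, *Slc7a1* and *Rora*. The weakest probesets of *Aldh18a1* and *Ccdc134* gave 0.72 and 1.40 and were also called higher. For *Hspa5* the weakest gave 0.18, and 2 of 3 probesets were called higher. For the decreases of *Dixdc1* and *Nxpe2* the weakest gave -0.06 and -0.20, with 3 of 4 and 1 of 2 probesets called lower.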

How the data were processed

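The table was deposited as log2 values that the authors made from Affymetrix mouse expression arrays, with background correction, quantile normalization and summary of probes to probesets by RMA. Per the labels, the affy and limma packages were used, and no versions are given. Which arrays were normalized together is not given in the sources used here, and later time points were not analysed here. RMA sets the arrays to a common distribution, and its log2 signals have no read depth, so the number of arrays limits the precision. RNA came from 1 mouse per array, 3 per group.

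From these values, control probesets were left out and 45037 probesets were fitted with limma 3.58.1 in R 4.3.3, with 1 mean for each of 4 groups, so that all 12 arrays gave the spread (8 residual degrees of freedom). Wild-type TM was compared with wild-type vehicle, and p-values were adjusted by Benjamini-Hochberg over all probesets. The scripts were tested on simulated data. Of the probesets, 34945 named 1 gene, 932 several and 9160 none, by the platform annotation. Each of 18193 genes took its probeset with the highest mean. Among 58 gene lists, 1291 of 1409 members had a probeset of their own.

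Genes were named from those given by rule, with some members of the lists and of the brightest genes given only as counts. The rules took the 15 largest changes each way among called genes whose groups did not overlap, and the 10 brightest called genes each way. They also took the members of lists of up to 25 genes and the genes of the qRT-PCR panel. From longer lists they took the 6 members with the largest moderated t. The members and lists were chosen with earlier results of these data known. Alternatives were other normalizations, probeset choices, covariates, thresholds, a replicate block, single arrays left out and the methods' t-test. With 3 animals against 3 an exact permutation test of a single gene cannot go below 0.1.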

Additional observations from a re-analysis of the deposited data

Results flagged for a closer look

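The 51 genes looked at were the 30 with the largest changes in wild-type mice and those of the qRT-PCR panel. For 10 of them the response of Atf6a-/- mice to the same injection differed from that of wild-type mice. This was by limma's test of the interaction, adjusted over all probesets. The wild-type difference that picked the 30 is part of this test, so that a smaller response in Atf6a-/- mice was favored for them. The share of all genes passing the test is not given here. The values below are the Atf6a-/- difference minus the wild-type difference, on the log2 scale, from 3 animals in each of the 4 groups. The response was smaller in Atf6a-/- mice by the following amounts. *Far1* gave -4.66 (adjusted p 0.00892), against a wild-type increase of 4.55. *Tes* gave -3.58 (adjusted p 0.000197) and *Derl3* -3.25 (adjusted p 0.00102). *Creld2* gave -2.91 (adjusted p 0.000465) and *Pdia4* -2.91 (adjusted p 5.79e-05), the latter against a wild-type increase of 3.14. *Gm17767* gave -1.69 (adjusted p 0.00151) and *Dnajb11* -1.54 (adjusted p 0.00206).

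The increase was larger in Atf6a-/- mice for *Ppp1r15a*, at 1.203 (adjusted p 0.000985), and for *Atf3*, at 1.55 (adjusted p 0.00632). *Srebf1*, which fell by 3.68 in wild-type mice, gave 1.595 (adjusted p 0.0293), so that its decrease was smaller in Atf6a-/- mice.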

How the results depend on the processing

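Of the 30 genes with the largest changes, all kept their call and direction under the other normalizations, covariates, weights, left-out arrays and probeset means. The methods' t-test after adjustment kept 25 of 30, and the 22 that had a probeset left all kept it where probesets that may match several transcripts were dropped. No other scaling moved the median of all genes by over 0.1.

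Counts of probesets higher and lower moved by over 1.5 times under some settings. A 2-fold threshold gave 1559 and 841, and no fold threshold 4275 and 3890. Mean values per gene gave 1360 and 1008 genes, beside the 1623 and 1255 genes called above, a move of under 1.5 times. The methods' t-test gave 3110 and 2110 at its own unadjusted threshold and 1375 and 775 after Benjamini-Hochberg adjustment, or 764 and 486 genes. Quantile normalization gave 3052 and 2490, and cyclic loess 3333 and 2083. Leaving out single arrays gave 2734 to 3463 and 1790 to 2690 probesets, or 1397 to 1730 and 1022 to 1545 genes. A covariate for Y-linked signal gave 3320 and 2449.

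Without probesets that may match several transcripts, 6 list members took the other sign, none of them called there: *Alg2* at -0.14, *Arntl* at -0.091, *Copz1* at -0.004, *Dnaja3* at -0.18, *Rpn1* at -0.046 and *Srpr* at -0.044. Those genes were then read from another probeset.

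The sources used here do not say whether the animal numbers shared by the groups pair the animals. The calls above did not use them as pairs, and the correlations here are too few to decide it. The correlations of deviations from the group means were -0.181, -0.078 and 0.146 for numbers 1, 2 and 3, and the highest value of all pairs, 0.205, joined vehicle replicate 2 and TM replicate 1. A fit with the number as a replicate block gave 3204 and 2212 probesets.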

Other observations

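The vehicle animals differed among themselves for several genes, some of which fasting and stress hormones are known to affect. These genes were picked after their values were seen, and no test was made. Vehicle replicate 2 was also the only vehicle array with signal from Y-linked genes (*Eif2s3y* at 8.47, against 3.12 and 3.32). The part of sex, fasting or stress in these differences was not tested. *G6pc*, of glucose output, read 9.45, 12.02 and 8.68 in vehicle replicates 1 to 3 and 12.08, 11.99 and 11.94 with TM, so that vehicle replicate 2 lay with the TM animals. *Serpina12*, the gene of vaspin, read 12.04 in vehicle replicate 2 and at most 9.70 in any other animal. *Mt2* went the other way, at 8.09 in vehicle replicate 2 and 13.23 to 14.09 elsewhere, as did *Igfbp1*, at 9.30 against 11.80 to 13.65. *Keg1* was highest in vehicle replicate 2, at 12.43 against 10.67 and 10.78.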
